A study of Homo sapiens with 18 samples.

Results

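PANC-1 and BxPC-3, a pair of human pancreatic ductal adenocarcinoma cell lines, were compared in the absence of drug, in 3 libraries each, taken after 6 h with the solvent DMSO. These are 6 of the 18 libraries of a study that gave PANC-1, BxPC-3 and MIA PaCa-2 cultures DMSO or 100 nM THZ1, a covalent inhibitor of the transcription kinase CDK7, for 6 h. The members were chosen by the labelled line and treatment alone, and 15354 of the 17026 endogenous genes in the table entered the test. All cultures shared a serum-containing F12 medium with beta-glycerophosphate and ascorbic acid, so the groups differ by line and not by medium. Polyadenylated RNA was sequenced from stranded libraries, with ERCC control RNAs added to the extracted RNA. Each line is a single established line grown in culture, with no stroma; the labels do not say whether the 3 libraries of a line came from separate cultures, so a p-value here weighs a difference against a spread that may be technical.

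Epithelial cells of the pancreatic duct hold together through E-cadherin, desmosomes and tight junctions, and carry simple keratins as intermediate filaments. In an epithelial-mesenchymal transition (EMT), transcription factors of the ZEB and SNAIL families repress genes of these junctions, and vimentin filaments and other motility genes appear. BxPC-3 is commonly described as an epithelial line with a homozygous deletion of SMAD4, the shared effector of TGF-beta signalling, whereas PANC-1 is used as a model of a mesenchymal-leaning state.

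Levels are given as the deposited value multiplied by 1 constant, so that the mean library sums to 1e+06, and they are not divided by gene length, so they compare libraries and not genes. A difference is the PANC-1 mean minus the BxPC-3 mean of log2(level + 1), and a gene was called at an adjusted p of 0.05 (limma with Benjamini-Hochberg adjustment). Because 1 is added before the logarithm, differences of low genes are understated, and where a line has only a few reads the difference is no estimate of the fold. Values in each library are given in the order of replicates 1, 2 and 3.

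The BxPC-3 DMSO libraries held 13278119 to 16940307 reads, and the PANC-1 DMSO libraries 6352482, 15517910 and 13413402. PANC-1 DMSO replicate 1, the shallowest of them, stood apart from its group. Its log2 levels correlated with those of its group at 0.935 and 0.946, against 0.996 between replicates 2 and 3, and its residual SD around the group mean was 0.55 against 0.10 to 0.33 in the other 17 libraries. Mitochondrially encoded mRNAs made up 1.95% of its endogenous reads against 4.04% and 4.05%, and its 20 most abundant genes 22.2% against 11.4% in each of the others. RNAs that carry no long poly(A) tail were high in it. The RNase MRP RNA RMRP stood at 201, 12.3 and 10.7 in the PANC-1 libraries and the 7SK RNA gene RN7SK at 409.6, 26.6 and 20.3, both picked after their values were seen. Of 3712 genes under a level of 1 in both other PANC-1 libraries, 1209 (32.6%) reached 2 in replicate 1, whereas the same count gave 0 to 3 genes in each of the other 5 libraries. Counts of called list members in the DMSO comparison are also given without this library.

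**Figure D1:**
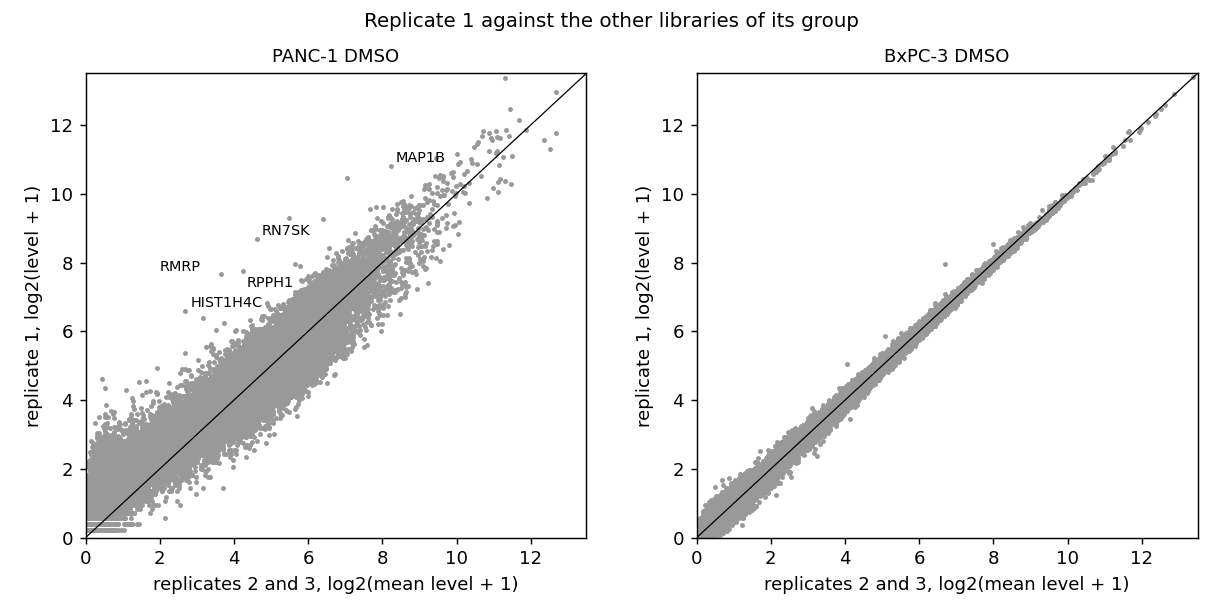
Each point is a gene, with the mean of replicates 2 and 3 on the horizontal axis and replicate 1 on the vertical axis, both as log2(level + 1); the line marks equal levels. The PANC-1 points (left) scatter widely, with RMRP, RN7SK, RPPH1, HIST1H4C and MAP1B far above the line and many low genes raised to 2 or more, while the BxPC-3 points (right) lie close to it.

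The lines differed in a large part of their measured transcriptome. Of 15354 genes tested, limma called 9071 (59.1%): 5171 (33.7%) were higher in PANC-1 and 3900 (25.4%) lower. At least a 2-fold difference was reached by 2289 higher (14.9%) and 1570 lower genes (10.2%), and at least a 4-fold difference by 653 higher and 542 lower genes. These calls draw on the spread within all 6 groups of the fit; with the 6 compared libraries alone, 6290 of 13746 genes (45.8%) were called. For 8843 genes (57.6%) the 3 libraries of one line did not overlap those of the other. Without PANC-1 replicate 1, 10667 of 15164 genes (70.3%) were called, 5631 higher (37.1%) and 5036 lower (33.2%), of which 1988 and 1737 at least 2-fold; 8475 of the 9071 calls (93.4%) kept their direction and their call. The balance of directions rests on the scale: with DESeq2 size factors 4180 genes were called higher and 4961 lower, a share of 45.7% higher against 57.0% on the deposited scale. The median difference of all genes was 0.12, 0.04 without PANC-1 replicate 1, 0.19 with the ERCC controls as the scale and -0.06 with DESeq2 size factors, and the gene differences described here are mostly far above that shift. Each count of called list members below is to be read beside the shares over all genes. These were 33.7% higher and 25.4% lower (37.1% and 33.2% without PANC-1 replicate 1).

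**Figure D2:**
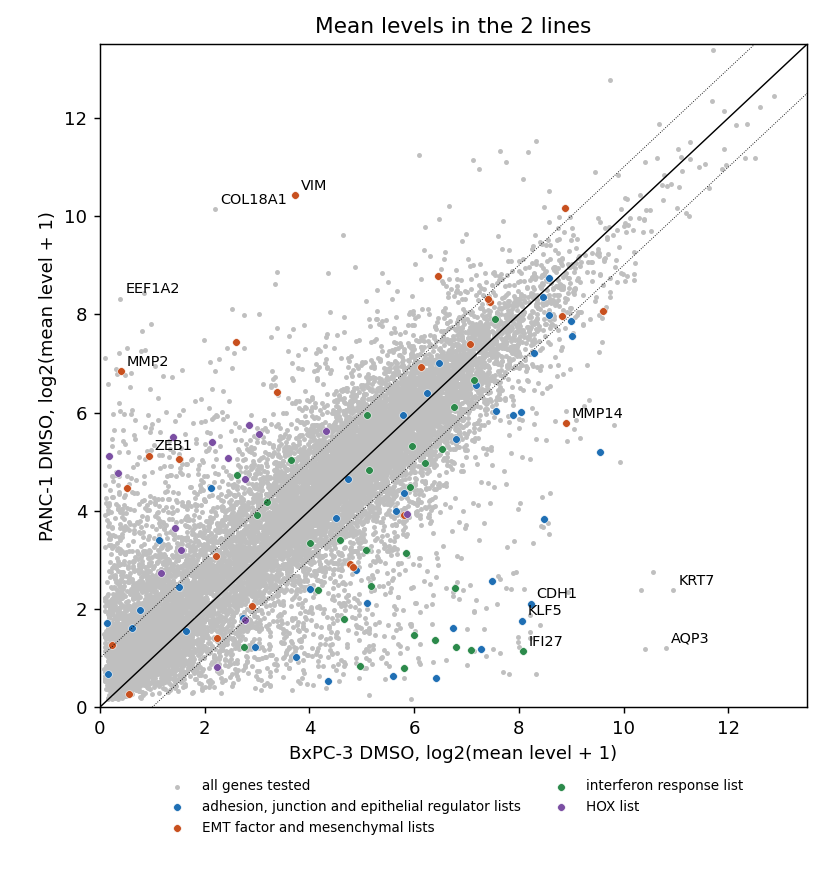
Each grey point is 1 of the 15354 tested genes, placed by its mean level in BxPC-3 (horizontal) and PANC-1 (vertical), as log2(mean level + 1) over 3 DMSO libraries; coloured points are members of the named gene lists, the solid line marks equal levels and the dotted lines 2-fold differences. CDH1, KLF5, KRT7, AQP3 and IFI27 lie at the lower right, while VIM, COL18A1, EEF1A2, MMP2 and ZEB1 lie at the upper left.

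Most genes with the steepest differences were near silent in one line and abundant in the other. VIM was not silent in BxPC-3, where its 11.8 to 13 lay above the library medians of 10.5 to 10.7. AQP3, a water and glycerol channel of epithelia, stood at 1697, 1819 and 1834 in BxPC-3 and 2.37, 0.869 and 0.693 in PANC-1 (log2 difference -9.66, SE 0.19, adjusted p = 2.32e-16). F3, which encodes tissue factor, the cell-surface trigger of blood clotting, measured 1373, 1395 and 1328 in BxPC-3 and 1.42, 1.28 and 1.16 in PANC-1 (log2 difference -9.23, SE 0.13, adjusted p = 6.75e-18). In both genes every BxPC-3 library was far above every PANC-1 library. The other steepest genes of BxPC-3 were KRT7, KRT13, COL17A1 (collagen XVII of the hemidesmosome), S100A2, the actin-bundling protein LCP1, the aldehyde dehydrogenase ALDH3A1, the interferon-induced IFI27, the atypical cadherin FAT2, IGFBP6 and the ERK phosphatase DUSP4, with differences between -8.68 and -6.82. In the opposite direction, EEF1A2, a translation elongation factor normally restricted to neurons and muscle, was 0.19, 0.61 and 0.115 in BxPC-3 and 436, 276 and 241 in PANC-1 (log2 difference 7.90, SE 0.18, adjusted p = 1.31e-15). COL18A1, the collagen from which endostatin is cut, was 3.51, 3.35 and 3.92 in BxPC-3 and 1540.0, 977 and 875 in PANC-1 (log2 difference 7.90, SE 0.16, adjusted p = 3.11e-16). The chromatin remodeller CHD5, the neuronal pentraxin NPTX1, the adhesion molecule L1CAM, RAB34, COL5A2, ARHGAP4, VIM, the RNA-binding protein IGF2BP1, the potassium channel KCNMA1 and the carboxylesterase CES1 followed, with differences from 7.56 to 6.45. None of these 24 genes overlapped between the lines, and all 24 were called in the same direction without PANC-1 replicate 1, as the naming rule required.

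Both lines carried RNA of ductal markers, at different levels, and KRT7 was near absent from PANC-1. Of 8 tested duct markers, 5 were called higher in PANC-1 and 3 lower (4 and 3 without PANC-1 replicate 1). KRT19, the keratin most used to mark duct cells, was abundant in both, at 1359, 1525 and 1525 in BxPC-3 and 975, 796 and 713 in PANC-1 (log2 difference -0.84, SE 0.11, adjusted p = 7.1e-06). KRT7, its usual companion, was 1888, 2008 and 2030.4 in BxPC-3 and 7.26, 2.5 and 2.83 in PANC-1 (log2 difference -8.68, SE 0.22, adjusted p = 5.78e-15), so that this duct keratin was near absent from PANC-1. KRT8, the type II partner of KRT18 in simple epithelia, was higher in PANC-1, at 659, 713 and 737 in BxPC-3 and 2762, 1562 and 1412 in PANC-1 (log2 difference 1.38, SE 0.17, adjusted p = 2.28e-06). KRT18 itself was 164, 173 and 169.7 in BxPC-3 and 269, 193 and 173 in PANC-1 (log2 difference 0.30, SE 0.12, adjusted p = 0.0422); this call was lost when any BxPC-3 library was left out (differences 0.28 to 0.32) and without PANC-1 replicate 1 (0.12, adjusted p = 0.146, limma). SOX9, a transcription factor of the embryonic and adult duct, measured 14.6, 10.8 and 13 in BxPC-3 and 99.4, 127 and 133 in PANC-1 (log2 difference 3.12, SE 0.12, adjusted p = 6.03e-13), with all PANC-1 libraries above all BxPC-3 libraries. Every gene in the table had at least 1 read in every library, so a marker with 0 reads may be missing from it. The table held 6 of 16 listed acinar, 2 of 11 islet, 2 of 12 leukocyte, 4 of 10 fibroblast and 3 of 9 endothelial markers. Whether the missing ones were silent cannot be told. The summed level of 6 acinar markers was 45 to 47.7 in BxPC-3 and 2.72 to 11.1 in PANC-1, that of 2 islet markers 1.52 to 2.13 in BxPC-3 and 2.37 to 8.37 in PANC-1 and that of 2 leukocyte markers 2.42 to 2.94 in BxPC-3 and 1.79 to 7.26 in PANC-1. The 4 fibroblast markers summed to 10.0 to 10.7 in BxPC-3 and 24.4 to 66.5 in PANC-1, most of it COL1A1, and the 3 endothelial markers to 1.75 to 2.8 in BxPC-3 and 50.6 to 140.5 in PANC-1, nearly all of it ENG, an accessory TGF-beta receptor. Of the tested members, called higher or lower were 0 and 2 of 3 acinar, 1 and 0 of 2 islet, 2 and 0 of 3 fibroblast, 1 and 1 of 2 leukocyte and 1 and 0 of 2 endothelial markers; without PANC-1 replicate 1 the counts were 0 and 2, 1 and 1, 1 and 0, 1 and 1, and 1 and 0. The part of these markers in the results below was not tested.

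Adhesion genes of the adherens junction and desmosome were lower in PANC-1 as a group. Of 14 tested members, 0 were called higher in PANC-1 and 13 lower (1 and 13 without PANC-1 replicate 1), 11 of them at least 2-fold lower, against 25.4% of all genes called lower; the median difference was -2.54 (-2.75 without PANC-1 replicate 1) against 0.12 over all genes. CDH1, which encodes E-cadherin, stood at 312, 296 and 285 in BxPC-3 and 4.89, 3.07 and 1.96 in PANC-1 (log2 difference -6.17, SE 0.17, adjusted p = 1.45e-14). P-cadherin, CDH3, was 171, 180.0 and 184 in BxPC-3 and 7.73, 3.73 and 3.41 in PANC-1 (log2 difference -4.98, SE 0.19, adjusted p = 7.93e-13), so both classical cadherins of the list were lower. The desmosomal cadherins DSC3 and DSG3 were close to silent in PANC-1: DSC3 measured 93.7, 80.0 and 79 in BxPC-3 and 0.947, 0.409 and 0.173 in PANC-1 (log2 difference -5.85, SE 0.16, adjusted p = 1.12e-14). DSG3 was 50.0, 47.8 and 43.9 in BxPC-3 and 1.42, 0.153 and 0.0578 in PANC-1 (log2 difference -5.07, SE 0.21, adjusted p = 3.08e-12). Desmoplakin, DSP, which ties desmosomes to keratin filaments, kept a measurable level in PANC-1, with 794, 722 and 731 in BxPC-3 and 25.4, 36.9 and 44 in PANC-1 (difference -4.40). DSG2 did likewise, with 380.3, 348 and 339.9 in BxPC-3 and 8.52, 14.3 and 16.8 in PANC-1 (difference -4.70). Smaller differences were found for the alpha-catenin gene and for desmocollin 2: CTNNA1 differed by -0.63 and DSC2 by -0.92. PERP, a desmosomal protein induced by p53, was the member not called, at 388, 374 and 378 in BxPC-3 and 251, 501 and 519.8 in PANC-1, with PANC-1 replicate 1 below BxPC-3 and the other PANC-1 libraries above; without replicate 1 it was called 0.42 higher (adjusted p = 7.95e-08, limma).

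Since ZEB and SNAIL factors bind E-box sequences of the letters CAGGTG, the 250 bases before the start of these genes were searched for CAGGTG and its reverse complement CACCTG in RefSeq promoters (GRCh38.p14, a different build from the hg19 of the files, used for sequence only). Of the 11 adhesion genes that were at least 2-fold lower, 6 had a promoter in the table, and 2 of these, DSP and DSG2, held the motif. They are shown beside DSG3, which held none, with the motifs in capitals and each written 5′ to 3′ on the gene's strand. DSP (chr6:7541421-7541670, plus strand) had motifs starting 178 and 85 bases before the start, and DSG2 (chr18:31497927-31498176, plus strand) 232 and 116 bases before it; DSG3 lies at chr18:31447491-31447740, plus strand.
DSP: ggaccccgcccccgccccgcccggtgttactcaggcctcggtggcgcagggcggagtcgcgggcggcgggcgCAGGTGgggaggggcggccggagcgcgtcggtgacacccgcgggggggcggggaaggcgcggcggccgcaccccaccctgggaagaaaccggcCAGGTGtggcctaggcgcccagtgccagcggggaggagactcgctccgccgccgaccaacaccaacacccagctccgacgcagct
DSG2: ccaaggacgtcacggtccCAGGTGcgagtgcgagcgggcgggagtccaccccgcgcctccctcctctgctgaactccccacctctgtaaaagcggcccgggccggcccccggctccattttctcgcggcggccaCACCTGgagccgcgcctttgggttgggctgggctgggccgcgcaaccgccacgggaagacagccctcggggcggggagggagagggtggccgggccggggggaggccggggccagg
DSG3: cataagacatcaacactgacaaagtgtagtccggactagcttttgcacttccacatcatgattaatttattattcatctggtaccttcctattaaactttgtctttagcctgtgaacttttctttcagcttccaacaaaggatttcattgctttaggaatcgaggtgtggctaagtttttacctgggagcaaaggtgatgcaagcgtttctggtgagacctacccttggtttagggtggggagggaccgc
The same letters stood in 17.5% of all 27305 promoters and in 15.9% of the 10386 tested genes with a promoter. They stood in 19.4% of 1114 genes at least 2-fold lower in PANC-1 and in 17% of 1652 at least 2-fold higher. Over the adhesion, tight junction and epithelial regulator lists they stood in 7 of 29 tested members and in 3 of 14 at least 2-fold lower. A match is a description of letters, not of binding.

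Tight junction genes were divided. Of 18 tested members, 6 were called higher in PANC-1 and 9 lower (5 and 10 without PANC-1 replicate 1), with a median of -0.50. MARVELD3, a membrane protein of the junction, measured 12, 12.1 and 13.4 in BxPC-3 and 2.37, 0.46 and 0.289 in PANC-1 (log2 difference -2.86, SE 0.25, adjusted p = 2.83e-08). LSR, of tricellular junctions, was 227, 234 and 243 in BxPC-3 and 83.7, 53.2 and 44.8 in PANC-1 (log2 difference -1.99, SE 0.16, adjusted p = 1.23e-08). OCLN, which encodes occludin, went the other way, at 3.41, 3.29 and 3.28 in BxPC-3 and 13.1, 24.2 and 26.2 in PANC-1 (log2 difference 2.30, SE 0.21, adjusted p = 8.32e-08), so this junction protein's RNA was higher in the line with little E-cadherin RNA. CLDN10 and CLDN11 were also called higher, but at PANC-1 levels of 2.05, 2.5 and 2.25 and 4.74, 2.2 and 1.91. Among keratins of stratified epithelia, 3 of 6 were called higher and 2 lower (2 and 3 without PANC-1 replicate 1). KRT13, a keratin of internal stratified epithelia, was 298, 333 and 332 in BxPC-3 and 1.58, 0.153 and 0.0578 in PANC-1 (log2 difference -7.78, SE 0.24, adjusted p = 5.33e-14). KRT80 was higher in PANC-1, at 16, 14.4 and 15.8 in BxPC-3 and 61.4, 42 and 39.1 in PANC-1 (log2 difference 1.54, SE 0.13, adjusted p = 2.36e-08). KRT81 and KRT86, also called higher, are near-identical hair keratins whose reads cannot be assigned with certainty, and KRT86, at a difference of 0.53, was no longer called without PANC-1 replicate 1 (0.23) or without any of the BxPC-3 libraries.

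Regulators that hold the epithelial state were mostly lower in PANC-1, and EMT transcription factors mostly higher. Of 10 tested epithelial regulators and proteases, 2 were called higher in PANC-1 and 6 lower (2 and 6 without PANC-1 replicate 1), all 6 lower ones at least 2-fold, with a median of -1.81. KLF5, a Kruppel-like factor of proliferating epithelium, was 276, 263 and 258 in BxPC-3 and 2.84, 1.94 and 2.37 in PANC-1 (log2 difference -6.31, SE 0.14, adjusted p = 1.35e-15). TP63, the master factor of basal and squamous epithelium, was 159, 157 and 148 in BxPC-3 and 3.0, 0.204 and 0.578 in PANC-1 (log2 difference -6.31, SE 0.27, adjusted p = 4.26e-12); its PANC-1 level was highest in replicate 1, yet far below BxPC-3 there too. The membrane protease ST14 (matriptase) differed by -5.21, whereas GRHL3, a grainyhead factor of epithelial barriers, was higher in PANC-1, at 1.33, 1.28 and 0.921 in BxPC-3 and 9.63, 8.99 and 10.2 in PANC-1 (log2 difference 2.29, SE 0.15, adjusted p = 1.33e-09). Of 16 listed EMT factors 6 were tested, of which 5 were called higher in PANC-1 and 1 lower (5 and 1 without PANC-1 replicate 1). Over all genes 33.7% were called higher and 25.4% lower. Only 3 of the higher ones reached 2-fold. SOX4 differed by 0.72 and TCF3 by 0.33 (0.39 and 0.21 without PANC-1 replicate 1), and TCF3 was not called by edgeR (adjusted p = 0.0507). ZEB1, the repressor of CDH1, stood at 0.711, 1.04 and 0.979 in BxPC-3 and 21.6, 35.5 and 44.1 in PANC-1 (log2 difference 4.13, SE 0.22, adjusted p = 4.83e-11). SNAI1, encoding SNAIL, was 0.521, 0.244 and 0.518 in BxPC-3 and 29.8, 16.2 and 16.8 in PANC-1 (log2 difference 3.89, SE 0.18, adjusted p = 1.33e-11). FOXC2, a forkhead factor, was 2.09, 1.89 and 1.61 in BxPC-3 and 24.9, 36.9 and 34.1 in PANC-1 (log2 difference 3.51, SE 0.17, adjusted p = 2.38e-11). For these 3 factors each PANC-1 library lay more than an order of magnitude above each BxPC-3 library. The forkhead factor FOXC1 went the other way, at 54.1, 58 and 53.5 in BxPC-3 and 11.2, 13.8 and 17 in PANC-1 (log2 difference -1.92, SE 0.12, adjusted p = 3.81e-10), and ZEB2 was under the filter, with PANC-1 levels of 4.42, 0.358 and 0.52.

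**Figure D3:**
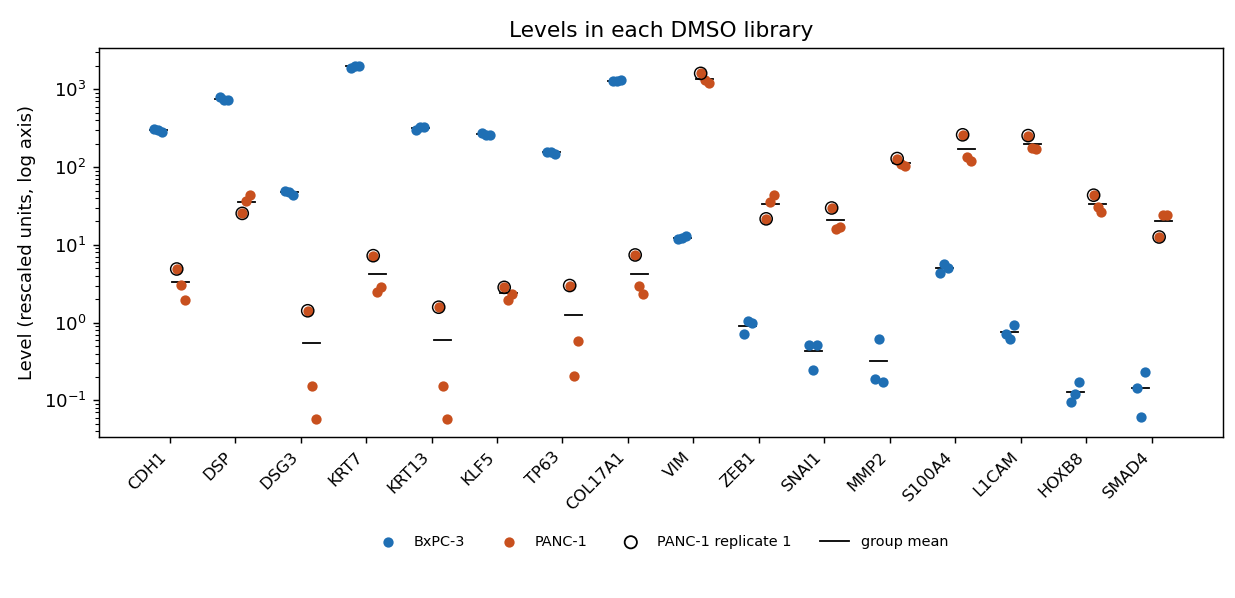
Points give the level of each gene in each of the 6 DMSO libraries on a logarithmic axis (rescaled units), blue for BxPC-3 and orange for PANC-1; bars are group means and the open circle rings PANC-1 replicate 1. From CDH1 to COL17A1 all BxPC-3 points lie above all PANC-1 points, and from VIM to SMAD4 the order is reversed, in every library.

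Structural genes of mesenchymal cells did not move as 1 group. Of 18 tested, 10 were called higher in PANC-1 and 7 lower (9 and 7 without PANC-1 replicate 1), with a median of 0.77 (0.44 without replicate 1). VIM, the vimentin filament, stood at 11.8, 12.1 and 13 in BxPC-3 and 1608, 1308 and 1200.0 in PANC-1 (log2 difference 6.68, SE 0.10, adjusted p = 6.75e-18). MMP2, gelatinase A, measured 0.19, 0.61 and 0.173 in BxPC-3 and 129, 108 and 104 in PANC-1 (log2 difference 6.45, SE 0.15, adjusted p = 1.94e-15). S100A4, a calcium-binding protein of motile cells, was 4.41, 5.67 and 5.01 in BxPC-3 and 261, 137 and 119.6 in PANC-1 (log2 difference 4.76, SE 0.20, adjusted p = 2.35e-12). These were high in all PANC-1 libraries and low in all BxPC-3 libraries. In contrast FN1, encoding fibronectin and itself a common mesenchymal marker, was lower in PANC-1, at 27.5, 24.6 and 27 in BxPC-3 and 12.8, 3.17 and 3.64 in PANC-1 (log2 difference -2.09, SE 0.30, adjusted p = 1.3e-05). MMP14, the membrane protease that activates MMP2, was also lower, at 459, 485 and 489 in BxPC-3 and 78.6, 43.4 and 40.7 in PANC-1 (log2 difference -3.18, SE 0.17, adjusted p = 7.42e-11), as was the follistatin-like FSTL1 (difference -2.0). Thus 7 of the 18 genes of this list were higher in the line with more E-cadherin RNA.

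Integrins and genes of the matrix differed in both directions. Of 17 tested integrins, 7 were called higher in PANC-1 and 6 lower (7 and 6 without PANC-1 replicate 1), near the 33.7% and 25.4% over all genes (37.1% and 33.2% without replicate 1). ITGB4, whose product pairs with the integrin alpha 6 chain in hemidesmosomes, was 862, 899 and 928 in BxPC-3 and 84.9, 38.9 and 34.9 in PANC-1 (log2 difference -4.17, SE 0.21, adjusted p = 3.61e-11). ITGB6, an epithelial integrin that activates TGF-beta, differed by -4.07 and ITGB8 by -2.87. ITGB3, the beta chain of a vitronectin receptor, was higher in PANC-1, at 0.664, 0.732 and 0.749 in BxPC-3 and 10.4, 11.3 and 13.6 in PANC-1 (log2 difference 2.89, SE 0.16, adjusted p = 1.36e-10), as was ITGA5, the fibronectin receptor chain (difference 1.92). Among 28 laminin and collagen genes 13 were called higher in PANC-1 and 12 lower (12 and 14 without PANC-1 replicate 1), 11 in each direction at least 2-fold. The hemidesmosomal COL17A1 was 1279, 1289 and 1316 in BxPC-3 and 7.42, 2.96 and 2.37 in PANC-1 (log2 difference -8.07, SE 0.21, adjusted p = 8.18e-15). COL4A6, of epithelial basement membranes, was 257, 249 and 250.2 in BxPC-3 and 3.0, 0.869 and 0.693 in PANC-1 (log2 difference -6.76, SE 0.23, adjusted p = 2.37e-13). LAMB2, a laminin beta chain, showed the reverse, at 0.0474, 0.244 and 0.0576 in BxPC-3 and 146, 72.2 and 66.6 in PANC-1 (log2 difference 6.34, SE 0.21, adjusted p = 1.66e-13). COL5A2, of fibrillar collagen V, was 0.806, 0.793 and 1.32 in BxPC-3 and 131, 264 and 274 in PANC-1 (log2 difference 6.76, SE 0.20, adjusted p = 3.63e-14). Read counts make the contrast plain for LAMB2, with 1, 4 and 1 reads in the BxPC-3 libraries. The summed fibroblast and endothelial markers were higher in PANC-1, as given above. The summed level of the laminin and collagen list was lower there, at 5476.8 to 5599.5 in BxPC-3 and 2467.1 to 3400.5 in PANC-1. Most of the fibroblast sum is itself the collagen gene COL1A1.

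Gene lists of the published tumour subtypes were read against the same differences. Of 26 listed basal-like genes 8 were tested, of which 0 were called higher in PANC-1 and 6 lower (0 and 7 without PANC-1 replicate 1), with a median of -3.69. Over all genes 33.7% were called higher and 25.4% lower (37.1% and 33.2% without replicate 1). The line with the lower levels of most tested basal-like genes was PANC-1, though CTSV (difference -0.02) and KRT15 (-0.27) were not called. S100A2, a basal-like gene, measured 1348, 1581 and 1616 in BxPC-3 and 7.73, 5.47 and 4.16 in PANC-1 (log2 difference -7.83, SE 0.14, adjusted p = 1.3e-16). TNS4, a focal adhesion protein, was 498, 496 and 476 in BxPC-3 and 7.89, 2.71 and 1.73 in PANC-1 (log2 difference -6.78, SE 0.28, adjusted p = 2.21e-12). Of 17 tested quasimesenchymal genes, 3 were called higher in PANC-1 and 9 lower (5 and 9 without PANC-1 replicate 1); the members led by S100A2, FERMT1 (difference -6.55) and KRT14 were lower in PANC-1, and AHNAK2 was higher, at 441, 414 and 428 in BxPC-3 and 839, 862 and 893 in PANC-1 (log2 difference 1.01, SE 0.07, adjusted p = 7.93e-10). Of 25 listed classical genes only 3 entered the test, of which 1 was called higher in PANC-1 and 2 lower (1 and 2 without PANC-1 replicate 1). CEACAM6, an epithelial adhesion glycoprotein, was 128, 128 and 129 in BxPC-3 and 1.74, 0.153 and 0.578 in PANC-1 (log2 difference -6.24, SE 0.22, adjusted p = 3.91e-13). LGALS4, a galectin of the gut epithelium, was low in both but higher in PANC-1, at 0.616, 1.16 and 0.518 in BxPC-3 and 4.74, 1.99 and 2.02 in PANC-1 (log2 difference 1.10, SE 0.22, adjusted p = 0.000425). In the S100 family, 4 of 11 were called higher and 4 lower (4 and 6 without PANC-1 replicate 1). S100A6 was higher, at 168, 210.0 and 201 in BxPC-3 and 1046, 686 and 595 in PANC-1 (log2 difference 1.96, SE 0.16, adjusted p = 1.22e-08), so abundant members of this calcium-binding family moved in opposite directions. Mucins showed 5 higher and 2 lower of 10 (5 and 5 without PANC-1 replicate 1). Among the higher were MUC3A, MUC12 and MUC1, by 2.42, 1.86 and 1.38 (1.97, 1.31 and 0.90 without PANC-1 replicate 1). MUC4, a membrane mucin, was lower, at 44, 49.2 and 50.5 in BxPC-3 and 7.89, 0.766 and 0.809 in PANC-1 (log2 difference -4.0, SE 0.40, adjusted p = 2.21e-07). For MUC16, known as the antigen CA125, replicate 1 of PANC-1 decided the sign: levels were 5.17, 3.78 and 3.63 in BxPC-3 and 17.8, 2.15 and 2.02 in PANC-1, with a difference of 0.13 that was not called and of -0.74 without that library (adjusted p = 0.00234, limma).

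Transcription factors of pancreas and endoderm differed in both directions. Of 13 tested, 6 were called higher in PANC-1 and 6 lower (6 and 6 without PANC-1 replicate 1), 6 and 5 of them at least 2-fold. FOXA1, a pioneer factor of endoderm, was 53.8, 52 and 50.2 in BxPC-3 and 1.42, 1.02 and 0.982 in PANC-1 (log2 difference -4.63, SE 0.16, adjusted p = 1.98e-13). GATA6, which marks classical pancreatic tumours, was 50.2, 51 and 50.3 in BxPC-3 and 3.16, 3.93 and 4.22 in PANC-1 (log2 difference -3.44, SE 0.12, adjusted p = 2.1e-13). Its relative GATA4 was higher in PANC-1, at 4.6, 4.94 and 4.32 in BxPC-3 and 22.4, 18.9 and 17.7 in PANC-1 (log2 difference 1.88, SE 0.13, adjusted p = 2.4e-09). PDX1, the factor of pancreatic identity, was low in both but higher in PANC-1, at 0.616, 0.549 and 0.979 in BxPC-3 and 9.47, 6.8 and 5.6 in PANC-1 (log2 difference 2.26, SE 0.18, adjusted p = 1.51e-08).

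SMAD4 RNA was close to absent from BxPC-3. The BxPC-3 libraries held 3, 1 and 4 SMAD4 reads and the PANC-1 libraries 80, 477 and 415; the levels were 0.142, 0.061 and 0.23 in BxPC-3 and 12.6, 24.4 and 24 in PANC-1 (log2 difference 4.17, SE 0.18, adjusted p = 4.08e-12). PANC-1 replicate 1 had the lowest level of its group, and no library of one line came near those of the other. Of 9 tested tumour suppressors, 4 were called higher in PANC-1 and 1 lower (5 and 2 without PANC-1 replicate 1); besides SMAD4 the kinase MAP2K4 was higher in PANC-1 (difference 2.45) and the TGF-beta receptor TGFBR2 lower, at 99, 93.2 and 95.3 in BxPC-3 and 25.6, 48.3 and 56.6 in PANC-1 (log2 difference -1.20, SE 0.20, adjusted p = 7.42e-05). In the TGF-beta and BMP list 11 of 33 were called higher and 12 lower (15 and 13 without PANC-1 replicate 1), with a median of -0.04 (0.11 without replicate 1). Over all genes 33.7% were called higher and 25.4% lower (37.1% and 33.2% without replicate 1), so the list as a whole leaned to neither line. LTBP2, a matrix protein of the family named for binding latent TGF-beta, was 11.6, 11.6 and 12.2 in BxPC-3 and 193, 212 and 213 in PANC-1 (log2 difference 4.01, SE 0.07, adjusted p = 1e-16). Receptors included BMPR1B, lower in PANC-1 (difference -2.50), and the co-receptor TGFBR3 (difference -2.06). ID3, a direct target of BMP and SMAD signalling, was 4.6, 5.91 and 4.26 in BxPC-3 and 169, 136 and 134 in PANC-1 (log2 difference 4.64, SE 0.12, adjusted p = 5.43e-15).

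In the EGFR family 8 of 11 receptors and ligands were called lower in PANC-1, 3 of them at least 2-fold. The other calls were 2 higher (2 and 8 without PANC-1 replicate 1), against 25.4% lower and 33.7% higher over all genes. ERBB3, the kinase-poor partner of ERBB2, was 65.3, 66.8 and 72.2 in BxPC-3 and 2.37, 0.818 and 1.1 in PANC-1 (log2 difference -4.88, SE 0.18, adjusted p = 6.89e-13). The ligand gene BTC differed by -1.82 and AREG by -1.03. ERRFI1, a feedback inhibitor that binds the EGFR kinase, was higher in PANC-1, at 44, 40.9 and 38 in BxPC-3 and 230.3, 556 and 595 in PANC-1 (log2 difference 3.34, SE 0.23, adjusted p = 1.75e-09), with its lowest PANC-1 value in replicate 1. NRG2, a neuregulin, was also higher (difference 3.0). The RAS to ERK kinases themselves had few calls: of 15 tested, 3 were called higher in PANC-1 and 2 lower (6 and 1 without PANC-1 replicate 1), a share below the 59.1% called over all genes. Output and feedback genes of ERK had more: of 22, 14 were called higher in PANC-1 and 5 lower (14 and 5 without PANC-1 replicate 1), with a median of 1.17 (1.00 without replicate 1). SPRY4, a Sprouty inhibitor of the pathway, was 13, 13.2 and 15.8 in BxPC-3 and 227, 217 and 213 in PANC-1 (log2 difference 3.88, SE 0.08, adjusted p = 2.61e-16). The ETS factor ETV5 was 13.7, 14.1 and 12.7 in BxPC-3 and 55.4, 56.2 and 53.4 in PANC-1 (log2 difference 1.95, SE 0.07, adjusted p = 4.94e-13). The lowest members of this list included a pair of ERK phosphatases, while the phosphatase genes DUSP1 and DUSP5 were called higher (differences 1.49 and 1.38, picked after their values were seen). DUSP4 was 253, 250.1 and 259.7 in BxPC-3 and 2.37, 0.766 and 0.924 in PANC-1 (log2 difference -6.82, SE 0.23, adjusted p = 1.94e-13). DUSP7 was 212, 213 and 206 in BxPC-3 and 28.3, 26.1 and 26.3 in PANC-1 (log2 difference -2.92, SE 0.07, adjusted p = 1.38e-15).

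Genes induced by interferon were lower in PANC-1, with few exceptions. Of 30 tested, 5 were called higher in PANC-1 and 24 lower (5 and 23 without PANC-1 replicate 1), 19 of them at least 2-fold lower, against 10.2% of all genes; the median difference was -1.53 (-1.75 without replicate 1). IFI27 was 257, 272 and 281 in BxPC-3 and 2.68, 0.46 and 0.462 in PANC-1 (log2 difference -7.09, SE 0.25, adjusted p = 2.67e-13). The DNA sensor IFI16 was 141, 132 and 132 in BxPC-3 and 3.0, 0.307 and 0.462 in PANC-1 (log2 difference -6.11, SE 0.28, adjusted p = 7.5e-12). The oligoadenylate synthetase OAS2 was 112, 109 and 109.9 in BxPC-3 and 2.37, 0.971 and 0.636 in PANC-1 (log2 difference -5.66, SE 0.19, adjusted p = 1.38e-13). For all 3, the BxPC-3 libraries were close together and the PANC-1 libraries near silence. IRF7, the factor that amplifies the interferon response, was an exception, at 5.78, 5.97 and 3.57 in BxPC-3 and 39.5, 20.1 and 16.8 in PANC-1 (log2 difference 2.04, SE 0.26, adjusted p = 3.66e-06), as was IFITM2, which shares sequence with the other IFITM genes (difference 1.34). Antigen presentation genes were divided, with 8 of 18 called higher and 8 lower (8 and 8 without PANC-1 replicate 1). B2M, the light chain of every class I molecule, was 786, 803 and 799 in BxPC-3 and 226, 291 and 292 in PANC-1 (log2 difference -1.57, SE 0.09, adjusted p = 8.11e-11). ERAP2, a peptidase that trims class I peptides, was 173, 170.0 and 167 in BxPC-3 and 19.9, 23.4 and 24.4 in PANC-1 (log2 difference -2.86, SE 0.09, adjusted p = 6.37e-14). CD274, which encodes PD-L1, was 8.34, 7.38 and 9.73 in BxPC-3 and 0.631, 0.102 and 0.289 in PANC-1 (log2 difference -2.83, SE 0.15, adjusted p = 7.62e-11). The class I gene HLA_B and the peptide transporter gene TAP1 were higher in PANC-1, by 1.22 and 1.18, though reads of HLA genes are shared among near-identical copies and polymorphic alleles.

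Cytokine and NF-kB genes differed strongly in both directions. Of 25 tested, 15 were called higher in PANC-1 and 8 lower (14 and 8 without PANC-1 replicate 1), 11 and 6 of them at least 2-fold. BxPC-3 held the interleukin-1 genes and lipocalin: IL1B was 68.3, 69.3 and 66.9 in BxPC-3 and 1.74, 0.46 and 0.347 in PANC-1 (log2 difference -5.30, SE 0.20, adjusted p = 9.57e-13). LCN2, an iron-carrier-binding protein, was 206, 221 and 216 in BxPC-3 and 7.73, 3.12 and 2.31 in PANC-1 (log2 difference -5.45, SE 0.23, adjusted p = 3.69e-12). PANC-1 held CSF1, the growth factor of macrophages, at 9.01, 10.7 and 8.7 in BxPC-3 and 604, 408 and 384 in PANC-1 (log2 difference 5.45, SE 0.13, adjusted p = 2.65e-15). CX3CL1, the membrane chemokine fractalkine, was 0.284, 0.366 and 0.23 in BxPC-3 and 98.8, 60.0 and 58.5 in PANC-1 (log2 difference 5.79, SE 0.17, adjusted p = 3.09e-14). BIRC3, an apoptosis inhibitor induced by NF-kB, was 6.68, 8.05 and 6.8 in BxPC-3 and 192, 281 and 297 in PANC-1 (log2 difference 4.96, SE 0.13, adjusted p = 9.47e-15). All of these were called in the same direction without PANC-1 replicate 1, and their groups did not overlap. They were named as the ends of the list, and over all genes 57.6% did not overlap and 70.3% were called without that library.

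Genes of the HOXB and HOXC clusters, which set position along the body axis, were higher in PANC-1. All 8 tested HOXB and 3 tested HOXC genes were called higher, whereas of 4 HOXA genes 1 was higher and 3 lower, and the counts were the same without PANC-1 replicate 1. Over all genes 33.7% were called higher and 25.4% lower. The list median was 2.12 (1.79 without replicate 1). HOXB8 was 0.0948, 0.122 and 0.173 in BxPC-3 and 43.6, 30.7 and 26.9 in PANC-1 (log2 difference 4.91, SE 0.17, adjusted p = 2.07e-13). HOXB2 was 0.427, 0.122 and 0.288 in BxPC-3 and 29.7, 24.9 and 24.7 in PANC-1 (log2 difference 4.42, SE 0.14, adjusted p = 7.96e-14). HOXA3 went the other way, at 56.5, 54.7 and 61.2 in BxPC-3 and 17.8, 14.2 and 11.1 in PANC-1 (log2 difference -1.95, SE 0.14, adjusted p = 1.91e-09). Exons of neighbouring HOX genes and of antisense transcripts overlap, and whether the counting used the strand is not given in the sources used here. Neural and neuroendocrine genes were called higher for 13 of 16 and lower for 0 (13 and 3 without PANC-1 replicate 1), against 33.7% and 25.4% over all genes, with a median of 1.91. L1CAM, a cell adhesion molecule of growing axons, was 0.711, 0.61 and 0.921 in BxPC-3 and 255, 177 and 170.0 in PANC-1 (log2 difference 6.83, SE 0.18, adjusted p = 6.79e-15). NES, the filament nestin, was 30.4, 31.2 and 37.5 in BxPC-3 and 347, 308 and 269 in PANC-1 (log2 difference 3.18, SE 0.12, adjusted p = 6.25e-13). SYP, synaptophysin, was 0.616, 0.549 and 0.576 in BxPC-3 and 14.5, 10.2 and 7.4 in PANC-1 (log2 difference 2.84, SE 0.18, adjusted p = 4.23e-10). These were several-fold above BxPC-3 in every PANC-1 library. The microtubule protein gene MAP1B was dominated by 1 library, at 1804, 306 and 288 in PANC-1 against 132, 123 and 123 in BxPC-3, and its difference of 2.10 was 1.23 without it.

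**Figure D4:**
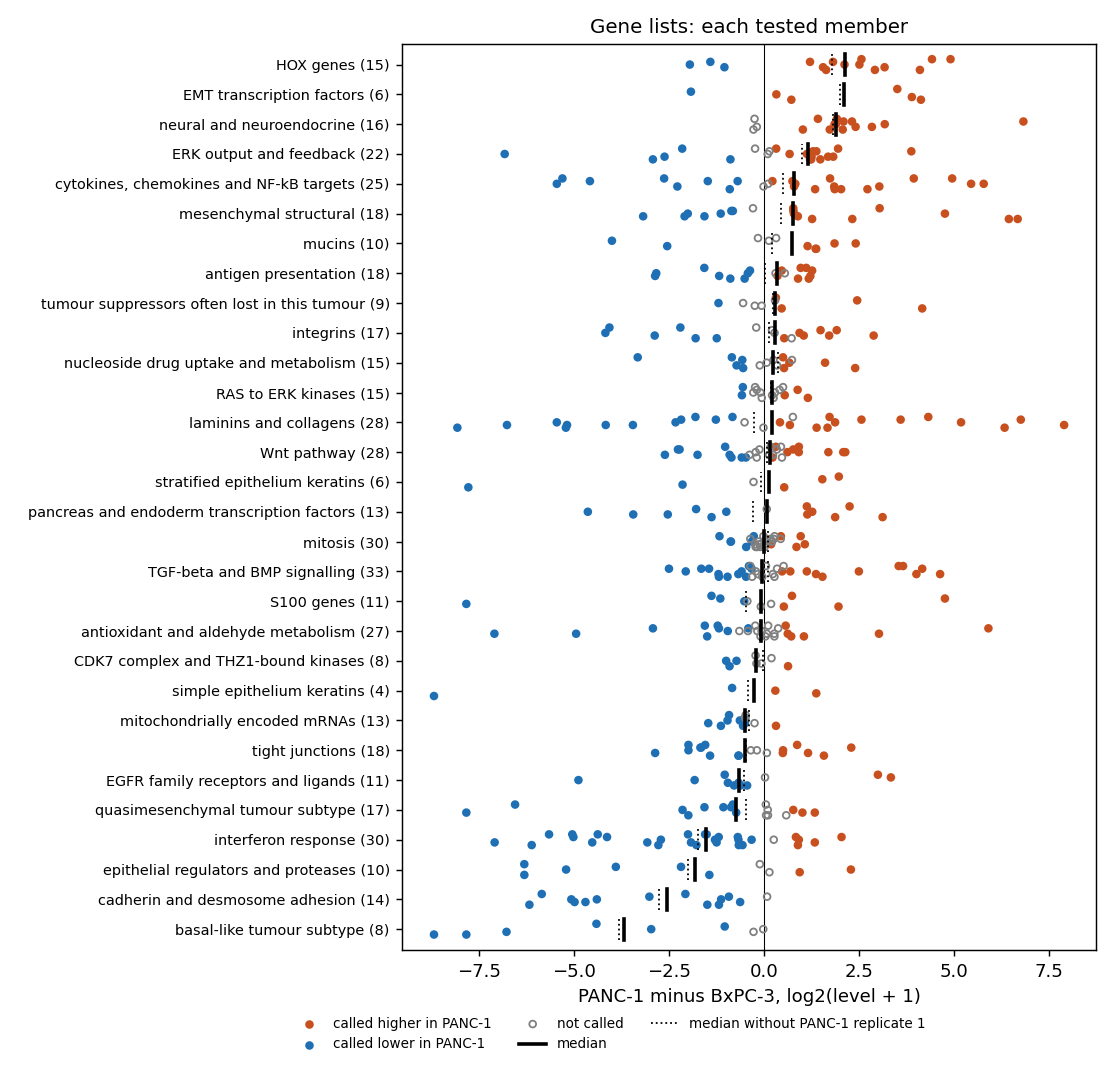
Each point is a tested member of the list named at the left (number tested in brackets), placed by its difference, PANC-1 minus BxPC-3 in log2(level + 1); filled points were called, open ones were not, and bars are list medians with (solid) and without (dotted) PANC-1 replicate 1. The basal-like, adhesion, epithelial regulator and interferon lists lie to the left, with medians from -3.69 to -1.53, and the HOX, EMT factor and neural lists to the right, with medians from 2.12 to 1.91.

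Metabolic and drug-handling genes showed single large differences. Of 27 antioxidant and aldehyde genes, 6 were called higher in PANC-1 and 9 lower (9 and 10 without PANC-1 replicate 1). HMOX1, which encodes the haem-degrading enzyme haem oxygenase, was 0.711, 1.22 and 1.27 in BxPC-3 and 141, 114 and 114 in PANC-1 (log2 difference 5.91, SE 0.19, adjusted p = 1.15e-13). TXNRD1, thioredoxin reductase, was 74, 70.0 and 71 in BxPC-3 and 333, 756 and 824 in PANC-1 (log2 difference 3.03, SE 0.22, adjusted p = 3.37e-09). ALDH3A1 was 193, 212 and 212 in BxPC-3 and 1.58, 0.204 and 0.116 in PANC-1 (log2 difference -7.09, SE 0.23, adjusted p = 8.42e-14); AKR1C1 differed by -4.94, but it has near-identical copies that share its reads. Of 15 genes of nucleoside drug handling, the pathway that takes up and activates gemcitabine, 5 were called higher in PANC-1 and 5 lower (8 and 6 without PANC-1 replicate 1). The uptake transporter SLC29A1 was 60.0, 59.9 and 64.6 in BxPC-3 and 361, 322 and 307 in PANC-1 (log2 difference 2.40, SE 0.08, adjusted p = 1.15e-13). CDA, the deaminase that inactivates cytidine analogues, was 10.9, 13.4 and 15.2 in BxPC-3 and 0.631, 0.255 and 0.347 in PANC-1 (log2 difference -3.32, SE 0.15, adjusted p = 9.6e-12). RRM2, a subunit of ribonucleotide reductase, differed by 1.61, and so transporter, deaminase and reductase all differed between the lines. In the Wnt list 9 of 28 were called higher and 9 lower (9 and 8 without PANC-1 replicate 1). Over all genes 33.7% were called higher and 25.4% lower (37.1% and 33.2% without PANC-1 replicate 1). With all libraries the Wnt and nucleoside counts were near these shares, and the genes named are the ends of their lists. The receptor FZD6 was 105, 85.5 and 96.3 in BxPC-3 and 6.95, 20.8 and 21.8 in PANC-1 (log2 difference -2.61, SE 0.28, adjusted p = 3.75e-07). The co-receptor ROR1 was 8.77, 8.29 and 7.95 in BxPC-3 and 31.3, 42.5 and 48.8 in PANC-1 (log2 difference 2.14, SE 0.14, adjusted p = 7.23e-10).

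RNAs of the kinases that THZ1 binds and of mitotic proteins mostly differed by less than 2-fold at baseline. CDK7, the main target, was 14.4, 14.1 and 13.4 in BxPC-3 and 16.1, 26.9 and 25.4 in PANC-1 (log2 difference 0.64, SE 0.14, adjusted p = 0.000987); CDK12 and CDK13 differed by 0.20 and -0.22 and were not called (adjusted p = 0.0996 and 0.288, limma), although CDK12 was called without PANC-1 replicate 1 (0.29, adjusted p = 0.0038). Of 8 genes of these kinase complexes, 1 was called higher in PANC-1 and 3 lower (2 and 3 without PANC-1 replicate 1), and none reached 2-fold with all libraries; CDK9, the elongation kinase, differed by -0.99, and by -1.15 without PANC-1 replicate 1 (adjusted p = 1.57e-11, limma). Of 30 mitotic genes, 5 were called higher in PANC-1 and 6 lower, 1 and 1 of them at least 2-fold; without PANC-1 replicate 1 the counts were 14 and 10, near the share of 70.3% over all genes. CENPF, a kinetochore protein, was 163, 159 and 154 in BxPC-3 and 315, 327 and 366 in PANC-1 (log2 difference 1.08, SE 0.09, adjusted p = 1.66e-08). KIF20A, a kinesin of cell division, was 97.3, 97.8 and 99 in BxPC-3 and 27.8, 50.0 and 57.1 in PANC-1 (log2 difference -1.17, SE 0.17, adjusted p = 1.17e-05). Of 13 mitochondrially encoded mRNAs, 1 was called higher in PANC-1 and 9 lower (1 and 9 without PANC-1 replicate 1); their summed level was 38364 to 39518 in BxPC-3 and 19509, 31981 and 31296 in PANC-1, lowest in the library that stood apart.

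The same pair of lines was also measured in 6 THZ1 libraries, whose levels enter no DMSO mean, although they share the fit and its estimate of spread. There limma called 10764 of 15354 genes (70.1%), 4693 (30.6%) higher in PANC-1 and 6071 (39.5%) lower. Of the 9071 genes called under DMSO, 6622 (73.0%) were called in the same direction under THZ1 and 619 in the opposite one. Of the 3859 genes called with at least a 2-fold difference under DMSO, 3447 (89.3%) were called in the same direction under THZ1 and 40 in the opposite one. The deposited values of the THZ1 libraries summed to 1.32e+06 to 1.35e+06 in BxPC-3 and 835505 to 856249 in PANC-1, and with the ERCC controls as the scale 8538 genes were called higher and 1926 lower, so the counts of each direction under THZ1 rest on the scale. The line difference itself was called different between THZ1 and DMSO for 6561 of 15354 genes (42.7%). The differences of CDH1 (-6.17 under DMSO, -7.27 under THZ1), KRT7 (-8.68 and -9.62), VIM (6.68 and 5.68) and SMAD4 (4.17 and 4.42) kept their sign after 6 h of drug. The adhesion list gave 0 higher and 13 lower members under THZ1, the interferon list 5 and 19, and the HOX list 12 and 2.

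**Figure D5:**
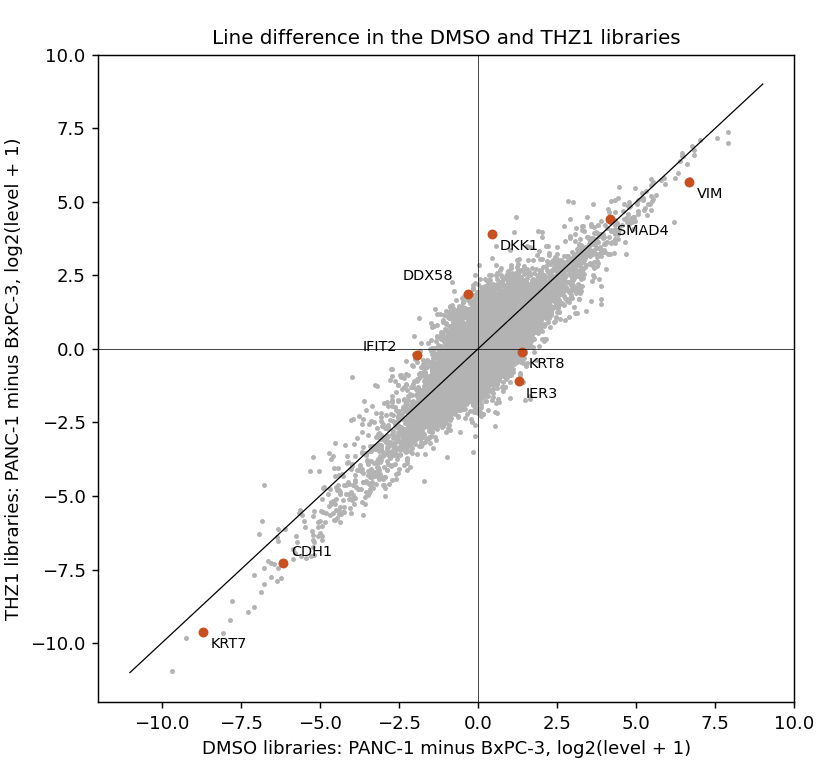
Each point is a tested gene, with the difference PANC-1 minus BxPC-3 in log2(level + 1) in the DMSO libraries on the horizontal axis and in the separate THZ1 libraries on the vertical axis; the diagonal marks equal differences. Genes with steep differences such as KRT7, CDH1, SMAD4 and VIM lie near the diagonal, whereas DKK1, DDX58, IFIT2, KRT8 and IER3, picked after their values were seen, lie away from it.

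The third line, MIA PaCa-2, shares the fit and its estimate of spread, but its levels are given here with no test. In MIA PaCa-2 under DMSO the mean levels were 0.179 for CDH1, 0.915 for KRT7, 1413 for VIM and 38.6 for ZEB1, values on the side of PANC-1. For TP63 (mean 101), COL17A1 (240.4) and IGFBP6 (184) it stood nearer to BxPC-3 on the log2 scale, and for MMP2 (0.146) and IGF2BP1 (0.332) its level was as low as in BxPC-3. PANC-1 and MIA PaCa-2, both with high VIM and low CDH1 RNA, thus did not share all of the genes that set PANC-1 apart from BxPC-3.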

How the data were processed

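The labels describe stranded sequencing of polyadenylated RNA, and the submitters' processing notes name STAR and hg19; the counter and annotation, and whether the authors filtered genes, are not stated there or in the labels. A single table covers 18 libraries, with 17026 endogenous genes and 38 ERCC controls. Its deposited library columns, a signal scaled by the authors, were whole reads divided by 1 number per library: 100% of values came out whole within 0.001 of a read, and what the authors based the divisors on is not given. The authors also deposited a log2 ratio, a log2 mean and a score of spread (SD) across lines, which were not used. No other columns of samples were left out. Gene names are as in the table, where a low line stands for a hyphen; 22 names turned into dates stay unnamed.

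All values were multiplied by 17.7, so that the mean library sums to 1e+06. Genes at 1 or more in at least 3 of 18 libraries were fitted in R 4.3.3 with limma 3.58.1 (trend) on log2(level + 1) over 6 groups of 3 libraries, which share 1 filter and 1 estimate of spread, with no covariate and Benjamini-Hochberg adjustment over all genes tested at 0.05. On the recovered reads, edgeR 4.0.16 (quasi-likelihood) called 9270 of the same genes, 4657 higher and 4613 lower in PANC-1. The other alternatives were 5 scales between libraries (ERCC, equal sums, equal medians, TMM and DESeq2 factors), other pseudocounts and filters, the deposited unit, no trend, the replicate number as a block, the 2 groups alone, voom, DESeq2 1.42.0 and each DMSO library left out. Only the main limma fit was tested on simulated data. The simulation held no library that stood apart, so it does not cover the effect of PANC-1 DMSO replicate 1. Depth, given in the report, sets the precision of low genes: 1 read was worth 0.0474 to 0.158 in level in the 6 DMSO libraries.

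The members, gene lists and tests were chosen with earlier results of these data known, and the list members are not independent evidence of a direction. Genes named are the 12 highest and 12 lowest differences among genes called at least 2-fold with a mean of 20 or more in the higher line, no overlap and the same call without PANC-1 replicate 1; up to 3 highest and 3 lowest of each list; and CDH1, VIM, ZEB1, KRT7, KRT19, SMAD4, GATA6, CDK7, CDK12 and CDK13. EPCAM was not analysed here, and 2 genes chosen at first are not reported here. Chosen after their values were seen were CDH3, DSP, DSG2, DUSP1, DUSP5, MAP1B, MUC16, RMRP, RN7SK, RPPH1, HIST1H4C, DKK1, DDX58, IFIT2, IER3 and the genes of the closing observations.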

Additional observations from a re-analysis of the deposited data

Results flagged for a closer look

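The difference between the lines was compared between the DMSO and THZ1 libraries by an interaction term in limma for 9 genes picked after their values were seen, and it differed for 8 of them (adjusted p under 0.05 over all genes). Over all genes it was called for 6561 of 15354 (42.7%), so the count of 8, from genes chosen for their values, is a description. In PANC-1 relative to BxPC-3, THZ1 shifted CDH1 by -1.10 (adjusted p = 0.00176), VIM by -1.0 (adjusted p = 3.11e-05), KRT7 by -0.94 (adjusted p = 0.0238) and KRT8 by -1.48 (adjusted p = 0.000169). With the ERCC controls as the scale these 4 shifts were -0.11, -0.16, 0.03 and -0.57 and none was called (adjusted p = 0.763, 0.569, 0.943 and 0.0537), so they depend on the scale. Without PANC-1 DMSO replicate 1 they were -0.84, -0.88, -0.55 and -1.18, all called. The others were called on both scales. IFIT2, an interferon-induced gene, shifted by 1.73 (2.56 on the ERCC scale), the RNA sensor gene DDX58 by 2.18 (2.95), the stress gene IER3 by -2.40 (-1.50) and the Wnt inhibitor gene DKK1 by 3.46 (4.26), and without PANC-1 DMSO replicate 1 by 1.59, 2.02, -1.99 and 3.09. DKK1 differed by 0.45 between the lines under DMSO, which was called only without PANC-1 DMSO replicate 1 (0.81), and by 3.91 under THZ1. IER3 was higher in PANC-1 under DMSO (1.29) and lower under THZ1 (-1.11). SMAD4 shifted by 0.25, which was not called (adjusted p = 0.446).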

How the results depend on the processing

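Of 143 genes followed through 24 alternatives, 136 kept their direction and their side of the threshold in each, and 7 did not in 1 or more. Those were KRT18 and KRT86 (14 alternatives each), CDK12, DKK1, PERP and MUC16 when PANC-1 DMSO replicate 1 was left out, and CDK7, whose difference was 0.44 and not called with DESeq2 factors. Not all genes named above were among those followed. KRT15 and TCF3 were not, and both changed sides of the threshold. KRT15 was called without PANC-1 DMSO replicate 1 (-0.39, adjusted p = 0.00127, limma), and TCF3 was not called by edgeR (adjusted p = 0.0507). MUC16 turned from 0.13 to -0.74 without PANC-1 DMSO replicate 1, also when the fit without that library held the compared groups alone. By edgeR without that library, an alternative chosen after seeing the data, it was -1.07. Leaving out 1 library at a time, limma gave -0.74 to 0.58. That edgeR fit also gave 2463 genes at least 2-fold lower. List medians were less stable: 170 of 884 values moved by at least the SD of the list median among the PANC-1 DMSO libraries.

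Leaving out 1 DMSO library at a time gave 8251 to 10667 calls, 4697 to 5631 higher and 3540 to 5036 lower, of which 1988 to 2630 and 1563 to 1737 at least 2-fold. A pseudocount of 5 left 1286 genes at least 2-fold higher. Without rescaling, so that 1 was added to and required of the deposited values themselves, 9057 genes could be tested, of which 3138 were higher, and 595 higher and 615 lower ones reached 2-fold. Voom gave 2395 at least 2-fold lower. The share of calls that were higher, 57.0%, was 63.5% on the ERCC scale, 47.8% with TMM and 45.7% with DESeq2 factors, 47.6% by voom and 50.2% by edgeR. Under THZ1 the ERCC scale gave 8538 genes higher and 1926 lower, 5460 and 939 at least 2-fold, and edgeR 3760 at least 2-fold higher. The cause of these shifts was not tested.

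With the compared groups alone, 6290 of 13746 genes were called. Deviations of same-numbered PANC-1 and BxPC-3 libraries from their group means correlated at -0.22, -0.07 and -0.16, and those of differently numbered libraries at -0.12 to 0.26. Deviations within a group are tied to each other, and PANC-1 replicate 1 had the largest (residual SD 0.55). These values therefore cannot decide whether replicate numbers pair the samples. With the replicate number as a block 9092 genes were called, 5186 higher and 3906 lower, 2290 and 1570 at least 2-fold. PANC-1 DMSO replicate 1 held the fewest reads of the 6 libraries, and differences of genes at a few reads are limited by depth.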

Other observations

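Outside the gene lists, several genes chosen after their values were seen stood out among the steepest differences. Among genes lower in PANC-1 were 3 adhesion-site adaptors. TRIP6, a zyxin-family protein, was 273, 305 and 309 in BxPC-3 and 3.47, 2.45 and 2.14 in PANC-1 (log2 difference -6.34, SE 0.14, adjusted p = 1.27e-15). LPXN, leupaxin, was 255, 266 and 265 in BxPC-3 and 3.0, 1.89 and 2.08 in PANC-1 (log2 difference -6.32, SE 0.11, adjusted p = 5.62e-17). FERMT3, a kindlin usually described in blood cells, was 192, 203 and 202 in BxPC-3 and 9.16, 3.27 and 2.77 in PANC-1 (log2 difference -5.19, SE 0.26, adjusted p = 2.59e-11). LTBR, the lymphotoxin beta receptor upstream of non-canonical NF-kB, was 175, 181 and 188 in BxPC-3 and 2.68, 0.766 and 0.404 in PANC-1 (log2 difference -6.44, SE 0.23, adjusted p = 3e-13), while its mean in MIA PaCa-2 was 102. MMP1, interstitial collagenase, was 368, 386 and 389.9 in BxPC-3 and 8.84, 11.5 and 11 in PANC-1 (log2 difference -5.07, SE 0.09, adjusted p = 1.38e-16). The reverse of MMP2.

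In PANC-1, IGF2, the fetal growth factor, was 0.237, 0.366 and 0.461 in BxPC-3 against 68.3, 40.6 and 39 (log2 difference 5.17, SE 0.24, adjusted p = 9.6e-12), beside the high RNA of IGF2BP1, an RNA-binding protein named for it. CTGF, a matricellular target of YAP and TGF-beta, was 1.09, 1.4 and 2.3 in BxPC-3 and 75, 119 and 122 in PANC-1 (log2 difference 5.35, SE 0.17, adjusted p = 1.18e-13). APOE, the lipid carrier, was 0.237, 0.427 and 0.864 in BxPC-3 and 147, 105 and 82.2 in PANC-1 (log2 difference 6.20, SE 0.22, adjusted p = 2.49e-13). Voltage-gated calcium channel genes were represented by CACNA1H, at 0.569, 0.183 and 0.461 in BxPC-3 and 155, 91.8 and 78.8 in PANC-1 (log2 difference 6.23, SE 0.20, adjusted p = 1.2e-13). The neuronal kinesin KIF1A was 0.616, 0.793 and 1.04 in BxPC-3 and 209.6, 132 and 121 in PANC-1 (log2 difference 6.38, SE 0.16, adjusted p = 5.42e-15). These genes were called in the same direction by limma without PANC-1 replicate 1, and in none did the 2 groups of libraries overlap. They were picked for steep differences, and over all genes 57.6% did not overlap and 70.3% were called without that library.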
